A study of Mus musculus with 9 samples.

Results

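The 9 genes described here encode secreted ligands of the vascular endothelial growth factor (VEGF) and angiopoietin families and the neuropilins, measured in 4T1 mouse mammary tumors. They were chosen by name as Vegfa, Vegfb, Vegfc, Pgf, Angpt1, Angpt2, Angptl2, Nrp1, and Nrp2, out of 22609 genes listed in the count tables. All 9 were among the 13366 genes (59.1%) that passed the filter on low counts. The tumors grew from 500000 cells of 4T1, a mouse triple-negative mammary carcinoma line, placed in the mammary fat pads of BALB/c hosts that had been on their diet for 6 weeks. The LFD group ate a diet with 10 kcal% fat and the HFD group a diet with 60 kcal% fat, and both received the vehicle, hydroxy propyl cellulose. The HFD + EC359 group ate the high-fat diet and received EC359, an inhibitor of the leukemia inhibitory factor receptor (LIFR), at 5 mg/kg by intraperitoneal injection on 5 days per week. Each group had 3 RNA-seq libraries. A group given EC359 on the low-fat diet was not analysed here, so the response to EC359 was measured on the high-fat diet only.

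VEGF ligands bind receptor tyrosine kinases on endothelial cells. Vegfa acts through Flt1 (VEGFR1) and Kdr (VEGFR2) and is the main driver of vessel sprouting, Vegfb and Pgf bind Flt1, and Vegfc acts through Flt4 (VEGFR3) and drives lymphatic growth. The angiopoietins act on Tek (Tie2), where Angpt1 steadies vessels and Angpt2, made largely by endothelial cells, opposes it in many settings. Angptl2 is related to the angiopoietins in sequence but does not act through Tek. The neuropilins Nrp1 and Nrp2 are surface co-receptors that bind both VEGF ligands and class 3 semaphorins, and tumor cells as well as endothelial cells can carry them.

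Library totals were 5085268 to 6509005 counts with LFD, 7314525 to 7922667 with HFD, and 8043470 to 9750959 with HFD + EC359. Levels are given in CPM, with each library brought to a common total by TMM factors, and at these depths a count of 0 allows 3 counts, or 0.3 to 0.614 CPM, for counting error only. The biological coefficient of variation, the spread between libraries of a group beyond counting noise, was 5.67% among LFD libraries, 2.54% among HFD libraries, and 2.76% among HFD + EC359 libraries. The labels do not say whether the libraries of a group came from separate mice, so this spread, on which the p-values rest, may not be that between animals. LFD library 1 stood farthest from the others of its group, with a mean chi-square per gene of 3.02 and 2.48 against libraries 2 and 3 and 1.36 between those. The libraries also differed by base composition, measured as the mean log2 level of genes with at most 45.8% GC minus that of genes with at least 55.4% GC. Relative to its mean over the 9 libraries, this difference was lower by 0.32 to 0.54 in the LFD libraries. It was higher than that mean by 0.10 to 0.16 in the HFD libraries and 0.25 to 0.30 in the HFD + EC359 libraries. This trend follows the groups, so values with it removed are given beside each member whose call it changed. The labels name the tissue as the 4T1 cell line, while the sample titles name 4T1 tumors. Markers of endothelial cells, fibroblasts, and macrophages were all detected, so the counts come from tumor tissue with its host cells. Fewer cells of a type and less RNA per cell cannot be told apart in such bulk samples.

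Vegfa, Nrp1, and Nrp2 were the 3 members that differed in every comparison of the groups, and the 250 bases before their transcription starts (RefSeq promoters, build GRCm38.p6, 5′ to 3′ on the gene's strand) are shown so that the letters can be read beside the values. Of the 9 members, 7 had a promoter in that table, and for Vegfa, which has 2 starts there, the more upstream start is shown. The windows are chr17:46032378-46032627 on the minus strand for Vegfa, chr8:128358823-128359072 on the plus strand for Nrp1, and chr1:62703067-62703316 on the plus strand for Nrp2. Capitals mark matches, on either strand, to GGGCGG (the GC box bound by Sp1-type factors) and to GCGTG or ACGTG (the core letters of a hypoxia response element). Where matches overlap or touch, the capitals run together.
Vegfa: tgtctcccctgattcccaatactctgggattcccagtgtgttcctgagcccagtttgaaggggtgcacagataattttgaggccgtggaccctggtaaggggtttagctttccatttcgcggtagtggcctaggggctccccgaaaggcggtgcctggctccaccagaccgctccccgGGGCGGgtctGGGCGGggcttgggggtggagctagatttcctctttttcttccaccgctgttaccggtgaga
Nrp1: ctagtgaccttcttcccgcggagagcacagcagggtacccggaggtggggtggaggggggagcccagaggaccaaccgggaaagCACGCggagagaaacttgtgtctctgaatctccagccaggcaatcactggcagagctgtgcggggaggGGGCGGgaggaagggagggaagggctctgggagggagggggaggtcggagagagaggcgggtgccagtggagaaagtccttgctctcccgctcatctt
Nrp2: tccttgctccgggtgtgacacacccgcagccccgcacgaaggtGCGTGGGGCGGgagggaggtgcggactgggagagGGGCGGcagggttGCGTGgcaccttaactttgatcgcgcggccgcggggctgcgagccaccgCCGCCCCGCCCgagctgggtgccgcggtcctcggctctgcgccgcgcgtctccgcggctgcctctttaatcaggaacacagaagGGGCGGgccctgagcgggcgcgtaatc

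The GC box was matched at 2 positions in the Vegfa window, 1 in the Nrp1 window, and 5 in the Nrp2 window, of which a pair overlap. The window before the other Vegfa start held 1 match to the GC box and 1 to each of the hypoxia core motifs. GCGTG was matched at 1 position in Nrp1 and 2 in Nrp2 and at none in the Vegfa window shown, and ACGTG was in none of the 3 windows. The motif TTCNNNGAA, the palindrome bound by STAT factors, was also searched on both strands and was in none of the windows of the 7 members, the second starts included. Over all 32851 promoters of the table, windows of 250 bases held GGGCGG in 32.7%, GCGTG in 28.2%, ACGTG in 16.6%, and TTCNNNGAA in 7.02%. These are letters in a short window and say nothing of binding.

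Tumors of the HFD group differed from those of the LFD group in all 9 members at an adjusted p under 0.05 (quasi-likelihood test of edgeR, Benjamini-Hochberg adjustment over all genes tested), 5 higher and 4 lower. In this comparison 51.8% of all genes tested passed the same threshold, 26% higher and 25.8% lower, and the libraries of the groups did not overlap for 57.1% of all genes and for 9 of 9 members. The median size of the members' log2 fold changes was 0.36, and that over all genes was 0.25. None of the members passed the study's stricter threshold, a fold over 2 with an adjusted p under 0.01, which 5.69% of all genes passed. Vegfa, Vegfc, Angpt1, Angpt2, and Nrp1 were higher on the high-fat diet, and Vegfb, Pgf, Angptl2, and Nrp2 were lower. Of these, Angpt1 passed the filter on low counts through its high-fat libraries.

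With EC359, 3 members differed from the HFD group: Vegfa fell, and Nrp1 and Nrp2 rose. The background in this comparison was 26.5% of all genes, 12.7% higher and 13.8% lower. The libraries of the groups did not overlap for the same 3 members and for 41.3% of all genes. No member passed the stricter threshold, which 3.46% of all genes passed. Relative to LFD tumors, 8 members differed in HFD + EC359 tumors, 4 higher and 4 lower, where 58.3% of all genes did, 29.2% higher and 29.1% lower. The libraries did not overlap for those 8 members and for 62.9% of all genes, and 1 member, Angpt1, passed the stricter threshold, as did 5.09% of all genes. Angpt1 entered the test through its high-fat libraries, where it was higher. The comparisons share groups, so their values for a member are not independent of each other. The plot of log2 fold changes sets the 3 comparisons side by side.

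**Figure D1:**
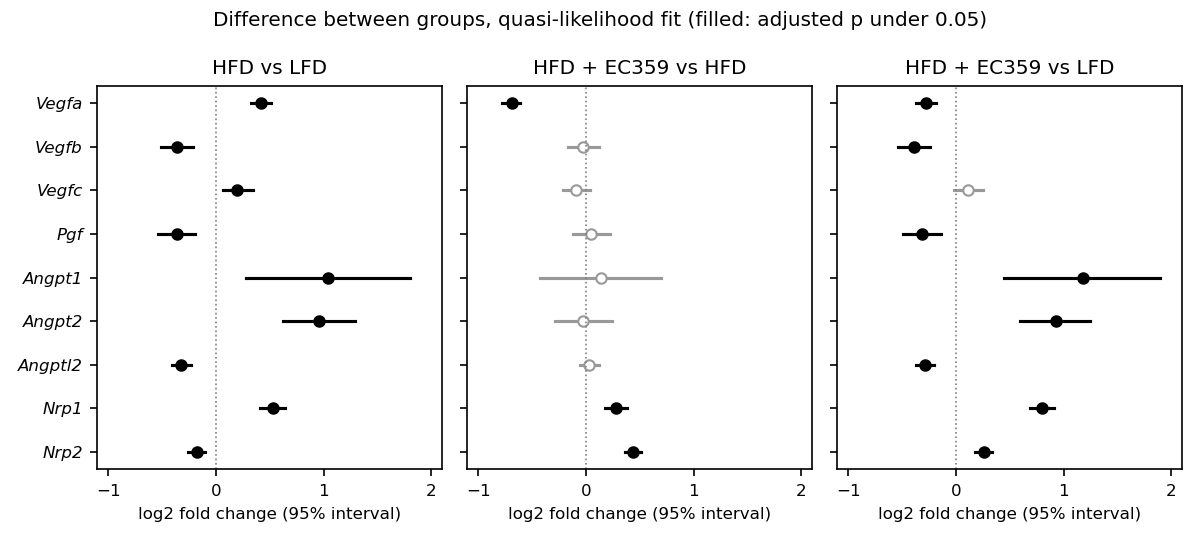
Log2 fold change of each of the 9 members (points) with its 95% interval (lines) in the 3 comparisons, from the quasi-likelihood fit; filled points passed an adjusted p of 0.05. Vegfa is right of 0 with HFD (0.42) and left of 0 with EC359 (-0.69), while Nrp1 is right of 0 in all 3 panels.

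Vegfa, the principal angiogenic ligand, lies on chromosome 17 (mm9, 46153943 to 46169326, minus strand, 8 exon intervals). Its level was 209, 193, and 201 CPM in the LFD libraries, 266, 261, and 278 CPM in the HFD libraries, and 165, 162, and 170 CPM in the HFD + EC359 libraries. The HFD libraries were all above the LFD libraries, and the HFD + EC359 libraries were below every library of both other groups. The rise with HFD was 0.42 on the log2 scale (SE 0.0432, adjusted p = 1.05e-09), a fold of 1.34. The fall with EC359 was larger, with a log2 fold change of -0.69 (SE 0.0419, adjusted p = 5.37e-15), a decrease of 38.2%. Against LFD, Vegfa in HFD + EC359 tumors was lower by a log2 fold change of -0.28 (95% interval -0.37 to -0.18, adjusted p = 2.9e-06). The size of its change with EC359 was in the 93rd percentile of all genes tested.

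Vegfb, a ligand of Flt1 linked to heart muscle and fatty acid uptake, was at 88.2, 72.5, and 71.9 CPM in LFD libraries, 60, 58.8, and 61.2 CPM in HFD libraries, and 61.7, 62.1, and 53.4 CPM in HFD + EC359 libraries. All LFD libraries were above those of the other groups, with LFD library 1 the highest. The log2 fold change with HFD was -0.36 (SE 0.0741, adjusted p = 0.000124). The exons of Vegfb (chromosome 19, 7056962 to 7062141) hold 62.6% GC, more than 98.2% of the genes tested, and in a fit that took out each library's trend on GC content and length the difference was -0.06 (adjusted p = 0.518). Its difference of HFD + EC359 from LFD, -0.39, was then -0.013 (adjusted p = 0.885). Both calls held in the other 17 alternatives.

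Pgf, placental growth factor, another ligand of Flt1, was likewise highest in the LFD group. Its level was 40.9, 41.8, and 43.4 CPM in LFD libraries, 32.7, 31.2, and 34.2 CPM in HFD libraries, and 34.7, 30.8, and 35.8 CPM in HFD + EC359 libraries. Its difference with HFD was -0.36 on the log2 scale (SE 0.0872, adjusted p = 0.000756). With the GC trend removed it was -0.20 (adjusted p = 0.0554), so this call was also lost under that alternative, as was that of HFD + EC359 against LFD (-0.31, and -0.19 with the trend removed, adjusted p = 0.063). Between HFD + EC359 and HFD the difference in Pgf was 0.05 with a 95% interval of -0.12 to 0.22.

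Vegfc, the ligand of lymphatic vessel growth, was slightly higher with HFD. Its level was 68.3, 63.4, and 70.1 CPM in LFD libraries, 75, 78.5, and 78.5 CPM in HFD libraries, and 76.5, 76.4, and 65.8 CPM in HFD + EC359 libraries. HFD libraries were all above LFD libraries, and HFD + EC359 library 3 lay among the LFD values. The log2 fold change was 0.20 with HFD (SE 0.0665, adjusted p = 0.0111), a call that was lost without LFD replicate 2 (0.15, adjusted p = 0.0848). It was -0.09 with EC359 (95% interval -0.21 to 0.04, adjusted p = 0.311), and 0.11 for HFD + EC359 against LFD (adjusted p = 0.136).

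**Figure D2:**
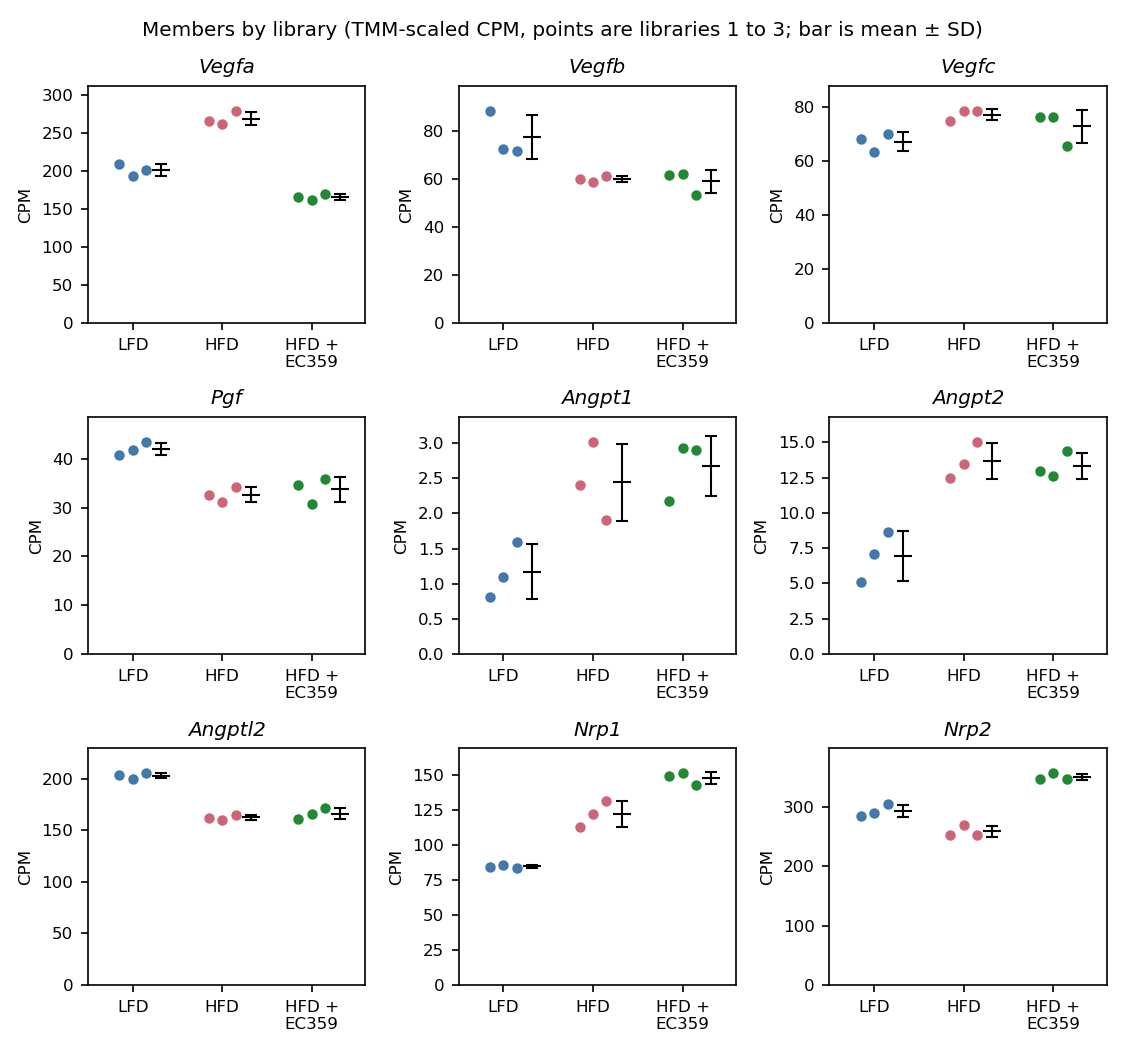
Level of the 9 members in each of the 9 libraries, in TMM-scaled CPM on axes that start at 0 and differ between genes; points are libraries 1 to 3 of a group and black bars the mean ± SD. Vegfa is highest in the 3 HFD libraries (261 to 278 CPM) and Nrp2 in the 3 HFD + EC359 libraries (346 to 356 CPM).

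Per length of exon, the makeup of the VEGF-family ligand transcripts shifted toward Vegfa with HFD. Of the summed RPKM (CPM divided by the length of the exons in kilobases) of Vegfa, Vegfb, Vegfc, and Pgf, the share of Vegfa was 28.2% ± 0.44 in LFD tumors, 37.2% ± 0.363 in HFD tumors, and 27.2% ± 1.62 in HFD + EC359 tumors (mean ± SD, n = 3). In HFD tumors Vegfa was the most abundant of the 4, while in LFD and HFD + EC359 tumors Vegfb was, at 35.3% and 31.5%. The share of Vegfc was 20.9%, 23.8%, and 26.5% in the LFD, HFD, and HFD + EC359 groups. The lowest HFD value of the Vegfa share, 36.8%, was above the highest value of the other groups, 29.1%. Shares of a sum move together, so these values are a description and were not tested. They were not corrected for the GC trend, and with that trend removed the diet differences of Vegfb (-0.06) and Pgf (-0.20) lost their calls.

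**Figure D3:**
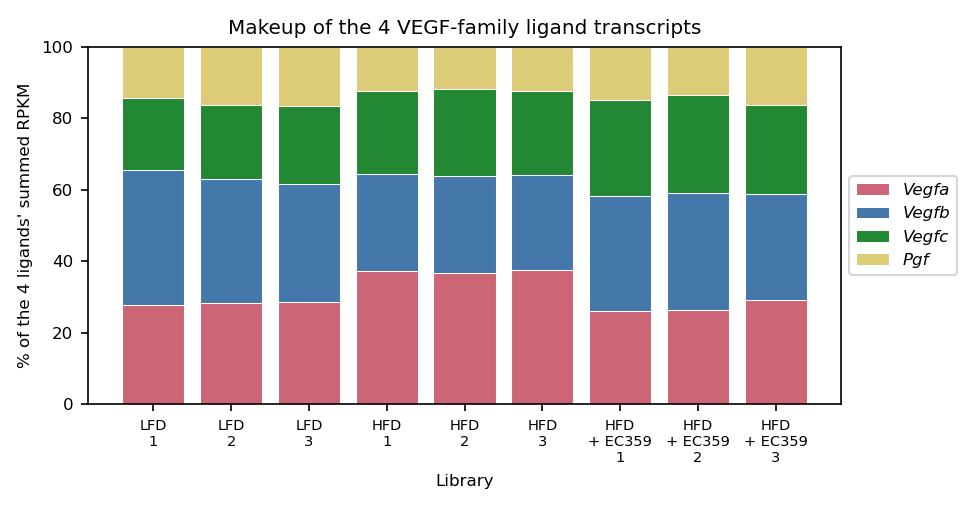
Share of Vegfa, Vegfb, Vegfc, and Pgf in the summed RPKM of the 4 ligands, in percent, for each of the 9 libraries. The Vegfa share is 36.8% to 37.5% in the HFD libraries and 26.2% to 29.1% in the other libraries.

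Angpt2, the Tek ligand made largely by endothelial cells, was lower in the LFD group than in the others. Its gene lies on chromosome 8 (18691337 to 18741551, minus strand) within the span of Mcph1, which is on the other strand, and shares no exon with it. Counts were 25, 45, and 49 in LFD libraries, 99, 103, and 110 in HFD libraries, and 107, 112, and 144 in HFD + EC359 libraries, or 5.11 to 8.64, 12.5 to 15, and 12.6 to 14.4 CPM. With HFD it rose by 0.96 on the log2 scale (SE 0.163, adjusted p = 1e-05), a fold of 1.94. It did not pass the test with EC359 (-0.03, 95% interval -0.29 to 0.24), and HFD + EC359 tumors stayed above LFD tumors by 0.93 (adjusted p = 8.26e-06). Thus the rise of Angpt2 relative to LFD was present in both high-fat groups.

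Angpt1, the agonist of Tek, was near the detection limit. It passed the filter on low counts through the high-fat libraries, where it was higher, so its calls against LFD are given as a description. Its counts were 4, 7, and 9 in LFD libraries, 19, 23, and 14 in HFD libraries, and 18, 26, and 29 in HFD + EC359 libraries. The lowest LFD library gave 0.818 CPM with an exact 95% Poisson interval of 0.223 to 2.1 CPM, for counting error only. The high-fat libraries were all above the LFD libraries, at 1.91 to 3.01 CPM with HFD and 2.18 to 2.93 CPM with HFD + EC359, and the log2 fold change with HFD was 1.04 (SE 0.374, adjusted p = 0.02). This call was lost with DESeq2 (1.05, adjusted p = 0.0753), without LFD replicate 1 (0.87, adjusted p = 0.0795), LFD replicate 2 (0.98, adjusted p = 0.068), or HFD replicate 2 (0.86, adjusted p = 0.0917), and under the fit with the trend taken out (0.62, adjusted p = 0.194). The exons of Angpt1 hold 38.9% GC, and only 2.48% of the genes tested were at or below that. For HFD + EC359 against LFD the log2 fold change was 1.18 (adjusted p = 0.00544), and 0.61 (adjusted p = 0.174) with the trend removed. With EC359 against HFD it was 0.14, with a 95% interval of -0.43 to 0.70 that leaves changes of either sign possible.

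Per length, Angpt2 exceeded Angpt1 by a ratio of 9.95 ± 0.863 in LFD tumors, 9.63 ± 2.93 in HFD tumors, and 8.35 ± 1.36 in HFD + EC359 tumors (mean ± SD of the ratio of RPKM, n = 3). The libraries of the 3 groups overlapped in this ratio. A difference in the ratio was not detectable at the depth of Angpt1. The ratio was not corrected for the GC trend.

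Angptl2, an angiopoietin-like protein tied to inflammation in fat tissue and tumors, was at 203, 200, and 205 CPM in LFD libraries. It was at 162, 160, and 165 CPM in HFD libraries and 161, 166, and 171 CPM in HFD + EC359 libraries, so that the LFD libraries were above all others. The log2 fold change was -0.32 with HFD (SE 0.0429, adjusted p = 1.95e-07) and -0.29 for HFD + EC359 against LFD (adjusted p = 6.63e-07). With the GC trend removed, these were -0.19 and -0.16 and still passed. With EC359 the difference from HFD was 0.03 (95% interval -0.05 to 0.12). Angptl2 lies on chromosome 2 (33071481 to 33103234, plus strand) inside the span of Ralgps1 on the other strand, and no exon is shared.

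The neuropilins moved in opposite directions with diet and in the same direction with EC359. Nrp1, co-receptor of Vegfa and of Sema3a, was at 84.5, 85.7, and 83.7 CPM in LFD libraries, 113, 122, and 131 CPM in HFD libraries, and 149, 151, and 143 CPM in HFD + EC359 libraries. No libraries of any of the 3 groups overlapped, and the order was LFD, HFD, HFD + EC359. The log2 fold change was 0.53 with HFD (SE 0.0558, adjusted p = 1.76e-09), 0.28 with EC359 (SE 0.0484, adjusted p = 4.12e-05), and 0.80 for HFD + EC359 against LFD (adjusted p = 2.65e-14). With the GC trend removed the diet difference was 0.31, smaller than the main value by over 1.5 times, and its call held. The gene lies on chromosome 8 (130882973 to 131029375, plus strand, 17 exon intervals, 45.2% GC), and the microRNA gene Mir1903 overlaps an exon on the same strand, while the Nrp1 count was whole in every library.

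Nrp2, co-receptor of Vegfc and of Sema3f, was the member with the most counts in a library, up to 3456. Its level was 285, 289, and 304 CPM in LFD libraries, 253, 269, and 253 CPM in HFD libraries, and 347, 356, and 346 CPM in HFD + EC359 libraries. The groups did not overlap, and HFD was the lowest. Nrp2 changed by -0.18 on the log2 scale with HFD (SE 0.0404, adjusted p = 4e-04) and 0.44 with EC359 (SE 0.0385, adjusted p = 8.1e-11). HFD + EC359 tumors were also above LFD tumors, by 0.26 (adjusted p = 1.14e-06). The gene spans 62749891 to 62865266 of chromosome 1 on the plus strand, and its exons hold 50.8% GC, near the middle of the genes tested.

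The ratio of Nrp1 to Nrp2 per length was 0.397 ± 0.017 in LFD tumors, 0.649 ± 0.0551 in HFD tumors, and 0.581 ± 0.0116 in HFD + EC359 tumors (n = 3). Nrp2 was thus the more abundant neuropilin in every library. The LFD libraries, 0.378 to 0.408, lay below all others, and the HFD libraries, 0.615 to 0.713, lay above the HFD + EC359 libraries, 0.568 to 0.591. The ratio of Vegfa to Nrp1 was 3.37 ± 0.163 with LFD, 3.12 ± 0.176 with HFD, and 1.59 ± 0.0861 with HFD + EC359. In that ratio the HFD + EC359 libraries, 1.52 to 1.69, were apart from the others, whose lowest value was 3.01, while LFD and HFD libraries overlapped. With 3 libraries against 3, an exact two-sided permutation test of such a ratio cannot give a p below 0.1, so no p is given. The ratios were not corrected for the GC trend, and with it removed the diet difference of Nrp1 went from 0.53 to 0.31.

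The order of the members' levels per length changed between groups. In LFD tumors it was led by Vegfb (60.5 RPKM) and Angptl2 (58.8), whose libraries overlapped, followed by Vegfa (48.2), Nrp2 (36), Vegfc (35.8), Pgf (26.8), Nrp1 (14.3), Angpt2 (2.8), and Angpt1 (0.287). Of the neighbours in that order, Vegfb and Angptl2, and Nrp2 and Vegfc, did not differ beyond the range of their libraries. In HFD tumors Vegfa was first (64.3 RPKM), above the range of Angptl2 (47.2) and Vegfb (46.8), which overlapped each other. Vegfc (41.1), Nrp2 (31.8), Pgf (20.8), and Nrp1 (20.6) came next, and of these Pgf and Nrp1 overlapped. In HFD + EC359 tumors Angptl2 (48.2), Vegfb (46.1), and Nrp2 (43) overlapped as neighbours, and so did Vegfa (39.7) and Vegfc (38.8), and Nrp1 (25) was above Pgf (21.5). Angpt2 and Angpt1 were the lowest members in every group. These levels were not corrected for the GC trend. With that trend removed, the difference of Vegfb from LFD was -0.06 with HFD and -0.013 with HFD + EC359.

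The plot of log2 fold changes against exon GC content shows how much of each member's difference moved with base composition. The members with the highest and lowest GC content, Vegfb and Angpt1, moved most when each library's trend was removed. Vegfa (51.9% GC), Angpt2 (49.8%), and Nrp2 (50.8%) kept nearly the same values. After the removal 6 members differed with HFD, 3 with EC359, and 5 between HFD + EC359 and LFD. The trend and the groups cannot be told apart in these libraries.

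**Figure D4:**
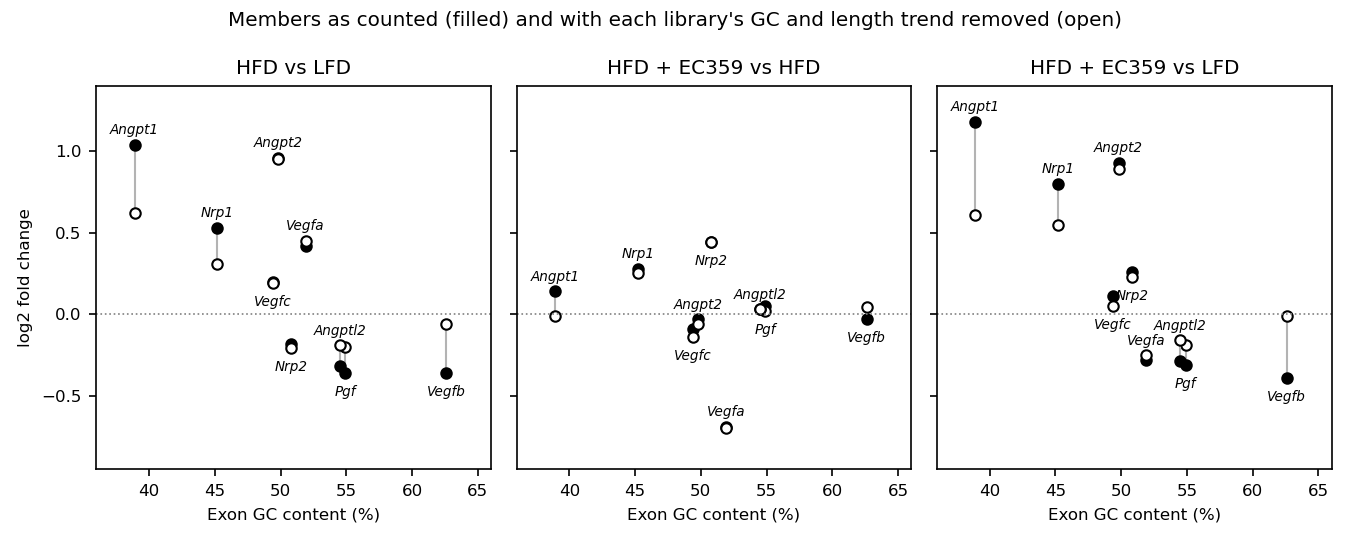
Log2 fold change of the 9 members against the GC content of their exons, in percent, for the 3 comparisons; filled points are the counts as deposited and open points the fit with each library's GC and length trend removed. Vegfb (62.6% GC) moves from -0.36 to -0.06 and Angpt1 (38.9% GC) from 1.04 to 0.62 with HFD, while Vegfa stays near -0.69 with EC359.

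The receptors of these ligands were all higher in HFD tumors than in LFD tumors. Kdr, the main signalling receptor of Vegfa, was at 30.7, 33.4, and 31.2 CPM in LFD libraries, 59.3, 55.3, and 51.9 CPM in HFD libraries, and 39.1, 35.2, and 36.3 CPM in HFD + EC359 libraries. Its log2 fold change was 0.80 with HFD (adjusted p = 1.29e-09) and -0.59 with EC359 (adjusted p = 1.95e-07), the same signs as Vegfa. Tek, the angiopoietin receptor, changed by 0.93 with HFD (adjusted p = 1.99e-05) and by -0.75 with EC359 (adjusted p = 0.000169), and its partner Tie1 by 0.45 and -0.65. Thus Tek fell with EC359 while neither of its ligands Angpt1 and Angpt2 passed the test there, and the difference between these genes was not tested.

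Flt1, the receptor of Vegfb and Pgf, rose by 0.43 with HFD (adjusted p = 3.17e-05), and its value with EC359 was -0.15 (95% interval -0.30 to -0.01, adjusted p = 0.119). Flt4, the receptor of Vegfc, rose by 0.52 with HFD (adjusted p = 0.00147), and its value with EC359 was -0.23 (95% interval -0.46 to 0.01, adjusted p = 0.155). Against LFD, HFD + EC359 tumors were higher in Flt1 (0.28) and Kdr (0.21, adjusted p = 0.0395), lower in Tie1 (-0.19, adjusted p = 0.0478), and did not pass for Flt4 (0.29) or Tek (0.18). Of these, the calls of Kdr and Tie1 were lost, and that of Flt4 gained, in at least 7 of the 18 alternatives, and Tie1 reached 0.08 with the GC trend removed. The counts of 5 of 5 receptors higher with HFD and 3 of 5 lower with EC359 were the same with RLE factors, library totals, thinned counts, and the trend removed. In the main fit 26% of all genes tested were higher with HFD and 13.8% lower with EC359.

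**Figure D5:**
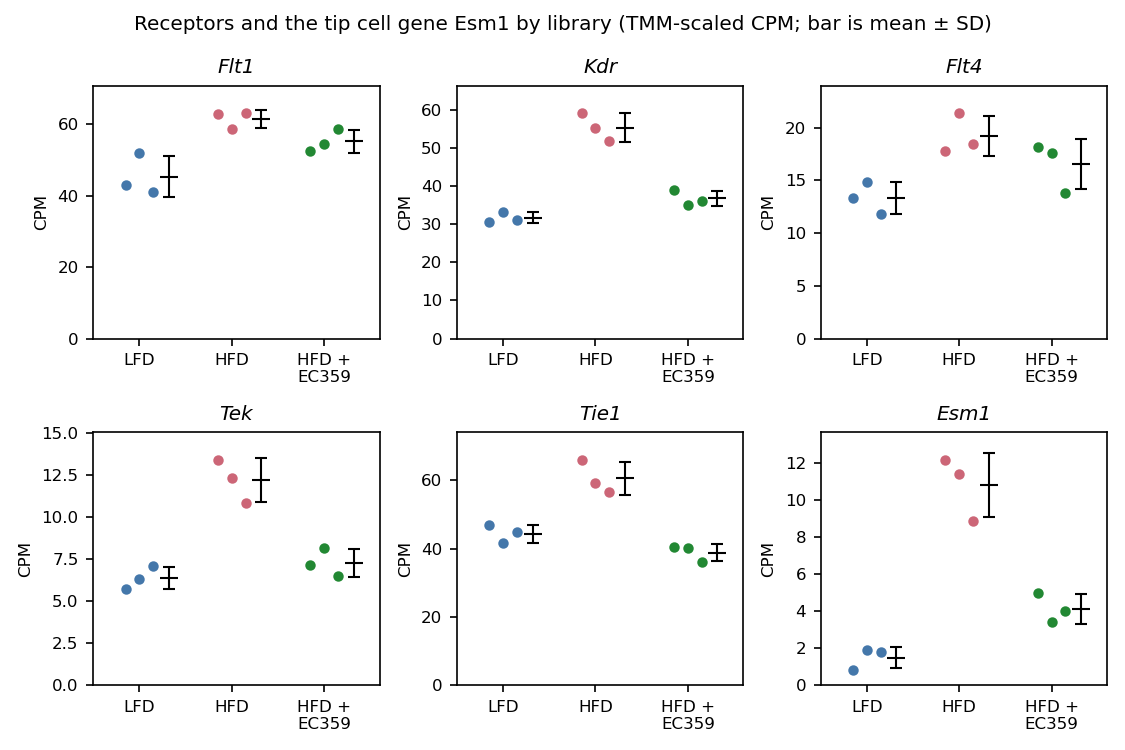
Level of the 5 VEGF and angiopoietin receptors and of the tip cell gene Esm1 in each of the 9 libraries, in TMM-scaled CPM on axes that start at 0; points are libraries and black bars the mean ± SD. The mean of each of the 6 genes is highest with HFD, and the HFD libraries overlap those of HFD + EC359 for Flt1 and Flt4.

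Markers of several cell types moved with the groups, and their part in the members' differences was not tested. The shares over all genes tested, for the counts of markers below, were 26% higher and 25.8% lower with HFD. They were 12.7% higher and 13.8% lower with EC359. Of 10 endothelial markers, 10 were higher with HFD and 6 lower with EC359, and none was at 0. Their summed level was 435 to 467 CPM in LFD libraries, 697 to 716 CPM in HFD libraries, and 594 to 629 CPM in HFD + EC359 libraries. The group levels of Kdr had the same order as this sum, while Vegfa in HFD + EC359 tumors was below LFD. Of 9 pericyte and smooth muscle markers, 7 were higher and 1 lower with HFD and 6 lower with EC359, and their sum was 493 to 503, 603 to 606, and 498 to 509 CPM in LFD, HFD, and HFD + EC359 libraries.

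Fibroblast markers had a sum of 7540 to 8990 CPM in LFD libraries, 13200 to 14000 CPM in HFD libraries, and 3680 to 3790 CPM in HFD + EC359 libraries, with 7 of 7 higher with HFD, and 5 lower and 1 higher with EC359. The order of the groups in this sum was the same as that of Vegfa. The collagen genes Col1a1, Col1a2, and Col3a1 had the highest levels among these markers, at 6870, 3260, and 3010 CPM with HFD. Other markers had another order, chosen for mention after their values were seen: Pdgfra was at 323, 375, and 476 CPM and Dcn at 27.3, 76.2, and 69.9 CPM in LFD, HFD, and HFD + EC359 tumors. Macrophages can carry Nrp1 and Nrp2, and their markers summed to 1450 to 1480 CPM with LFD, 1400 to 1420 CPM with HFD, and 1790 to 1810 CPM with HFD + EC359, and 7 of 7 were higher with EC359. With HFD 4 of these 7 were higher and 1, Mrc1, was lower, at 443 CPM against 567 CPM in LFD tumors. These counts were 6 higher and 1 lower with the GC trend removed. Neutrophil markers summed to 102 to 124, 131 to 143, and 165 to 171 CPM in the 3 groups, an order shared with Nrp1.

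Epidermis markers were highest in LFD libraries, at 1110 to 1280 CPM against 171 to 185 CPM with HFD and 525 to 534 CPM with HFD + EC359, and 6 of 7 tested were lower with HFD. Most of the LFD sum was Krt14 (762 CPM) and Krt5 (253 CPM), while Lor was at 11 CPM and Krtdap at 4.74 CPM. Whether host skin or tumor cells made these transcripts was not tested. Markers of epithelial tumor cells summed to 1110 to 1140, 705 to 714, and 763 to 791 CPM, with 4 of 4 tested lower with HFD and 3 higher with EC359. Most of the LFD sum was Krt8 (599 CPM) and Krt18 (486 CPM). Epcam was at 7.39, 1.37, and 5.06 CPM and Cdh1 at 28.5, 5.9, and 19.9 CPM in LFD, HFD, and HFD + EC359 tumors. Vegfb, Pgf, and Angptl2 were also highest with LFD, and none of them passed the test with EC359. Adipocyte markers were low, with a sum of 3.35 to 6.12, 6.95 to 8.51, and 7.2 to 8.37 CPM. Skeletal muscle markers summed to 112 to 126, 123 to 133, and 101 to 106 CPM. With HFD 3 of these 6 were higher and 1, Myh1, was lower. Lymphatic endothelial markers summed to 14.3 to 18.5, 27.4 to 30.4, and 20.4 to 25.4 CPM, and 3 of 5 were tested. From LFD to HFD, Lyve1 (0.893 to 8.49 CPM) and Flt4 (13.3 to 19.2 CPM) were higher. Prox1 (0.454 to 0.266 CPM), Ccl21a (0.482 to 0 CPM), and Reln (1.22 to 0.965 CPM) had lower means, and Prox1 and Ccl21a were not tested. Of all the markers, Ccl21a was at 0 in every HFD library.

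Endothelial tip cell genes, which sprouting vessels can express, were mostly higher with HFD: 7 of 8 rose and 1 fell, against 26% and 25.8% of all genes tested. Their median log2 fold change was 0.52, while the median over all genes was 0.01. Whether they responded to Vegfa, and which cells made their transcripts, was not tested. With EC359, 5 of 8 fell and none rose, against 13.8% and 12.7% of all genes tested, with a median of -0.26. The 3 most abundant were Unc5b, a netrin receptor, at -0.23 and -0.17 in the 2 comparisons, Apln, the ligand apelin, at 0.65 and -0.60, and Nid2, a basement membrane protein, at 0.27 and 0.03. Both values of Unc5b did not pass with the GC trend removed. Esm1, a secreted proteoglycan of tip cells, was named after its values were seen, at 1.49 CPM with LFD, 10.8 CPM with HFD, and 4.12 CPM with HFD + EC359, log2 fold changes of 2.81 (adjusted p = 1.07e-10) and -1.40 (adjusted p = 4.53e-07).

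Genes of the response to low oxygen, of which Vegfa is a classical target, changed in both directions. With HFD 4 of 14 were higher and 3 lower, against 26% and 25.8% of all genes tested, with a median of -0.06. Those higher were the target Adm (0.89) and Hif1a (0.19), Epas1 (0.39), and Arnt (0.44), which encode subunits of the hypoxia-inducible factors and are not counted as targets. The 3 lower, Slc2a1 (-0.40), Ldha, and Ndrg1, were all targets. With EC359 1 was higher and 5 were lower, against 12.7% and 13.8% of all genes tested, with a median of -0.11. The 3 most abundant were Ndrg1, a stress-response gene, at -0.23 with HFD and -0.40 with EC359, Ldha, lactate dehydrogenase, at -0.23 and -0.11, and Pgk1, a glycolytic enzyme, at -0.08 (adjusted p = 0.0665) and -0.18. With the GC trend removed the counts with HFD were 3 higher and 7 lower. Hif1a was then -0.15 (adjusted p = 0.00223), the other sign, while Adm (0.92), Epas1 (0.42), and Arnt (0.34) stayed higher.

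Among other ligands of the PDGF, VEGF, and angiopoietin-like families, 8 of 11 were tested, and with HFD 2 rose and 3 fell, with a median of -0.13. Of all genes tested, 26% rose and 25.8% fell with HFD, and 12.7% rose and 13.8% fell with EC359. The 3 most abundant were Pdgfb, which recruits pericytes, Angptl4, an inhibitor of lipoprotein lipase, and Pdgfa, a mitogen of mesenchymal cells. Their log2 fold changes with HFD were -0.15, -0.70, and -0.36. With EC359 they were -0.50, 0.09 (adjusted p = 0.284), and -0.35, so that Pdgfb and Pdgfa fell and no ligand of the list rose. With the GC trend removed Pdgfb was 0.11 with HFD (adjusted p = 0.0313), the other sign, Pdgfa was -0.10 (adjusted p = 0.186) and lost its call, and 3 rose and 1 fell. Vegfd, listed as Figf, was at 1.31, 1.23, and 1.45 CPM in the 3 groups and passed in no comparison.

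Of the class 3 semaphorins, plexins, and Gipc1, the partners of the neuropilins, 12 of 13 were tested. With HFD 3 rose and 4 fell, against 26% and 25.8% of all genes tested, with a median of 0.10. With EC359 2 rose and 1 fell, against 12.7% and 13.8% of all genes tested, with a median of -0.04. The 3 most abundant were plexins and a ligand: Plxnd1 at 0.00 and -0.09 in the 2 comparisons, neither of which passed, Plxna1 at -0.24 with HFD (adjusted p = 1.17e-06) and -0.03 with EC359, and Sema3f, a ligand of Nrp2, at -0.38 (adjusted p = 8.14e-10) and 0.17 (adjusted p = 0.000893). Sema3f thus had the same signs as Nrp2. The diet differences with the GC trend removed were 0.23 for Plxnd1 (adjusted p = 3.27e-07), a call gained, -0.08 for Plxna1 (adjusted p = 0.0416), and -0.15 for Sema3f (adjusted p = 0.000734). Sema3a, a ligand of Nrp1, was at 3.74 to 4.94 CPM in the group means and passed in no comparison.

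Of the 8 genes listed as secreted and matrix antagonists of angiogenesis, 6 were higher and 1 lower with HFD and 5 were lower with EC359. The list holds Vash2, whose action as an antagonist was not tested and which passed in neither of these comparisons. Over all genes tested, 26% were higher and 25.8% lower with HFD, and 13.8% lower with EC359. The 3 most abundant were Col18a1, the source of endostatin, at -0.51 with HFD (adjusted p = 1.27e-14) and 0.00 with EC359, Thbs1, thrombospondin, at 0.15 (adjusted p = 0.00134) and -0.04, and Thbs2, its relative, at 0.21 (adjusted p = 0.00028) and -0.48 (adjusted p = 1.52e-10). Col18a1 with the GC trend removed was -0.27 with HFD (adjusted p = 1e-10) and 0.12 with EC359 (adjusted p = 0.000663), a call gained, and Thbs1 and Thbs2 were 0.09 (adjusted p = 0.0291) and 0.11 (adjusted p = 0.0416) with HFD. The list's median was 0.32 with HFD and -0.27 with EC359.

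Between HFD + EC359 and LFD tumors, 4 tip cell genes were higher and 2 lower, 4 genes of the low-oxygen list were higher and 8 lower, and 1 of the other ligands was higher and 4 were lower. Of the semaphorin list 2 were higher and 4 lower, and of the genes listed as antagonists 3 were higher and 3, Vash2 among them, lower. In this comparison 29.2% of all genes tested were higher and 29.1% lower.

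The genes whose log2 CPM was most like that of Vegfa over the 9 libraries were Nav2 (Pearson r 0.992), Eln (0.990), which encodes elastin, and Loxl2 (0.989), a collagen cross-linking enzyme, among 11248 candidates with a mean of at least 5 CPM. Nrp1 was most like Wwp1 (0.998), P2rx7 (0.995), and Pphln1 (0.995), and 471 genes had an r above 0.95 with it. Nrp2 had 11 such genes, led by Ank3 (0.973), Xdh (0.972), and Hrnr (0.970). Vegfc had none, and its nearest gene was Tshz3 (0.925). The first gene by likeness was Pwwp2b (0.986) for Vegfb, Poldip3 (0.990) for Pgf, Senp1 (0.981) for Angpt1, Brix1 (0.987) for Angpt2, and St3gal1 (0.990) for Angptl2. These values are over 9 libraries in 3 groups that share depth and base composition, and serve as a description.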

How the data were processed

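The authors deposited, per the file headers, expected counts of read pairs per gene for each of 9 stranded mRNA libraries (paired reads), made with featureCounts 1.5.0-p1 on mm9 gene models, with reverse-strand counting, a minimum mapping quality of 2, and read pairs over several genes or positions split into fractions. The submitters' processing notes name HISAT2 2.1.0 and featureCounts, and the study's methods name TopHat2, HTSeq, and DESeq. The values are not normalized. In a library, 1.19% to 3.55% of genes held fractions, and counts were rounded to whole numbers (ties to the even number).

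Groups came from the sample labels. Counts were fitted with edgeR 4.0.16 (R 4.3.3) by glmQLFit and glmQLFTest, with filterByExpr, TMM factors, and the 3 groups in 1 fit, and p-values were adjusted by Benjamini-Hochberg over 13366 genes. A gene was called at an adjusted p under 0.05. The stricter threshold (fold over 2, adjusted p under 0.01) is that of the methods. CPM values use the TMM-scaled total of the tested genes, and RPKM is CPM per kilobase of exon. The labels speak of tumors and do not say whether each came from its own mouse, so p-values measure the spread between these libraries. Steps were tested on simulated counts.

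The alternatives were RLE factors, library totals, 2 other filters, thinned counts, the 6 libraries of a comparison alone, a replicate block, DESeq2 1.42.0, each library left out, and removal of each library's trend on GC content and length (splines with 5 df, GC from the mm9 genome).

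Members, lists, and the rule for named genes (all members, the 5 receptors, the 3 most abundant tested genes of each other pathway list, and for each member the 3 most alike) were chosen with earlier results of these data known.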

Additional observations from a re-analysis of the deposited data

How the results depend on the processing

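The calls of Vegfa, Nrp1, and Nrp2 in the 3 comparisons, and of Angpt2 and Angptl2 where they passed, held in all 18 alternatives. Over the alternatives, adjusted p ran from 1.59e-06 to 0.518 for Vegfb, 0.000465 to 0.0554 for Pgf, 0.00556 to 0.194 for Angpt1, and 0.00238 to 0.0848 for Vegfc with HFD. The replicate block gave 9, 3, and 8 members called in the 3 comparisons and changed no call of a member. Same-numbered libraries did not deviate together from their group means (r from -0.03 to 0.02). With 3 libraries per group, this cannot settle whether they shared a batch. With the GC and length trend removed, 5 members were called for HFD + EC359 against LFD, where Vegfb, Pgf, and Angpt1 were lost, and 6 with HFD. The cause of the trend was not tested.

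Vegfc passed for HFD + EC359 against LFD with library totals (0.19, adjusted p = 0.0137) and without HFD + EC359 replicate 3 (0.18, adjusted p = 0.0264). The members past the stricter threshold with HFD were 1 with thinned counts and 0 to 1 with a library left out. For HFD + EC359 against LFD they were 2 with library totals, 0 with at least 10 counts in every library (which Angpt1 did not pass), the trend removed, thinned counts, or DESeq2, and 0 to 2 with a library left out.

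Differences that never passed changed sign for HFD + EC359 against HFD. Vegfb was 0.005 with library totals, 0.044 with the trend removed, 0.022 with thinned counts, and -0.07 to 0.04 with a library left out. Angpt2 was 0.0049 with library totals, 0.016 with thinned counts, and -0.09 to 0.039 with a library left out. Angpt1 was -0.011 with the trend removed, -0.17 with thinned counts, and -0.009 to 0.31 with a library left out, and Pgf was -0.0029 to 0.11 with a library left out. Over all genes, library totals moved the higher share of calls from 47.8% to 58.4% for HFD + EC359 against HFD, and DESeq2 called 2344 genes there against 3545. Angpt1, with 4 to 29 counts, is limited by depth.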
